A study of Saccharomyces cerevisiae with 8 samples.

Results

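The genes described here are 10 yeast genes of the defence against peroxides and superoxide: SRX1, TSA1, TSA2, AHP1, TRX2, TRR1, GPX2, GLR1, SOD1 and CCP1. Each was represented by 1 probe set that names it alone in the platform annotation, so 10 of the 9275 probe sets other than controls were followed, and all 10 passed the filter on dim signals. The study hybridised RNA of 4 Saccharomyces cerevisiae strains to 8 arrays, 2 per strain: the reference wild type, cells carrying the allele not1-2, cells mutated in spt3, and cells carrying both mutations. All 4 strains were pre-grown for 24 h at 30°C in rich medium with glucose. At an optical density of 0.2 the cultures went to 37.5°C, the restrictive temperature, and they were sampled at 0.8, so the wild-type cells had the same heat treatment as the mutants. SRX1 was put on the list because its signal was high in not1-2 alone among these same arrays, so its differences between strains are given as a description with no test. The other 9 genes were tested with limma's moderated test in a fit over all 7043 probe sets kept, with p adjusted over all of them by the Benjamini-Hochberg method; the blocked fit also holds the replicate number, so that it compares arrays of the same number.

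Peroxiredoxins reduce hydrogen peroxide with a reactive cysteine, and thioredoxin, recharged by thioredoxin reductase and NADPH, returns them to the reduced state. When peroxide is abundant the cysteine is oxidised further and the enzyme stalls, and sulfiredoxin, the product of SRX1, repairs it. Glutathione and its reductase form a parallel system, superoxide dismutase feeds peroxide into both, and the transcription factor Yap1 controls many of these genes in yeast. CDC39 encodes Not1, the protein around which the Ccr4-Not complex, active in transcription and mRNA decay, is built, and Spt3 is a SAGA subunit that works with the TATA-binding protein. The design asks which changes of not1-2 cells depend on SPT3.

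The values are array signals, centred on each array's median, and have no read depth. The number of arrays limits the precision: the median standard error (SE) of a strain difference over all probe sets was 0.486 on the log2 scale, and 0.347 when the replicate number was a block in the fit. SPT3 was at the floor of the scale, a signal of 1.72, on all 4 arrays labelled spt3 and between 15.5 and 29.9 on the 4 others. The strains also differed in markers that are not part of the labels. MFA2, the a-factor gene, gave at least 1448.3 in wild type and at most 18.0 in the mutants, and TRP1 was at the floor in wild type and not1-2 and at least 36.0 in both spt3 strains. Strain differences below therefore also set unlike mating-type expression (wild type against any mutant) or unlike TRP1 expression (either spt3 strain against the others) against each other, and these cannot be told apart from the named mutations. The ACT1 control, whose ratio of 3' to 5' signal rises as RNA degrades, had ratios of 199.1, 36.8, 5.83 and 12.2 on the replicate 1 arrays of wild type, not1-2, spt3 and the double mutant, and between 1.79 and 2.10 on the replicate 2 arrays.

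SRX1, the sulfiredoxin gene, stood far above its level in the other strains in not1-2. Its signal was 857.9 and 863.3 in not1-2, against 105.4 and 48.6 in wild type, 133.6 and 66.5 in spt3 and 57.8 and 74.9 in the double mutant. Both not1-2 arrays lay more than 6 times above every other array, while the other 3 strains overlapped one another. The pattern "both not1-2 arrays above the 6 others" was met by 6.26% of all probe sets. By strain, not1-2 had a log2 mean of 9.75 ± 0.01 (SD, n = 2), spt3 of 6.56 ± 0.71, wild type of 6.16 ± 0.79 and the double mutant of 6.04 ± 0.26. The difference of not1-2 from wild type was 3.59 ± 0.50 (SE, log2), or 12-fold, which ranked 10th from the top of the 7043 probe sets. In RNA of a whole culture, more RNA per cell and more cells that express the gene cannot be told apart.

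Within not1-2 cells, SRX1 was far lower once SPT3 was also mutated. The double mutant lay below not1-2 by 3.71 on the log2 scale (-3.71 ± 0.50), a 13.1-fold lower signal and 10th from the bottom. The double mutant differed from wild type by -0.12 ± 0.50 and from spt3 by -0.52 ± 0.50, and spt3 from wild type by 0.40 ± 0.50, all within about the SE. The not1-2 effect with SPT3 mutated, less the effect with SPT3 intact, was -4.11 ± 0.70. SRX1 was chosen as high in not1-2 alone on these same arrays, which already implies a low double mutant and this negative value. These differences therefore describe the choice and do not test a dependence on SPT3. In the replicate pairs not1-2 exceeded wild type by 4.15 on the replicate 2 arrays and by 3.03 on the replicate 1 arrays, and the double mutant lay at -3.53 and -3.89 from not1-2. The comparisons with wild type and with the double mutant share the not1-2 arrays, so they are not independent of each other.

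**Figure D1:**
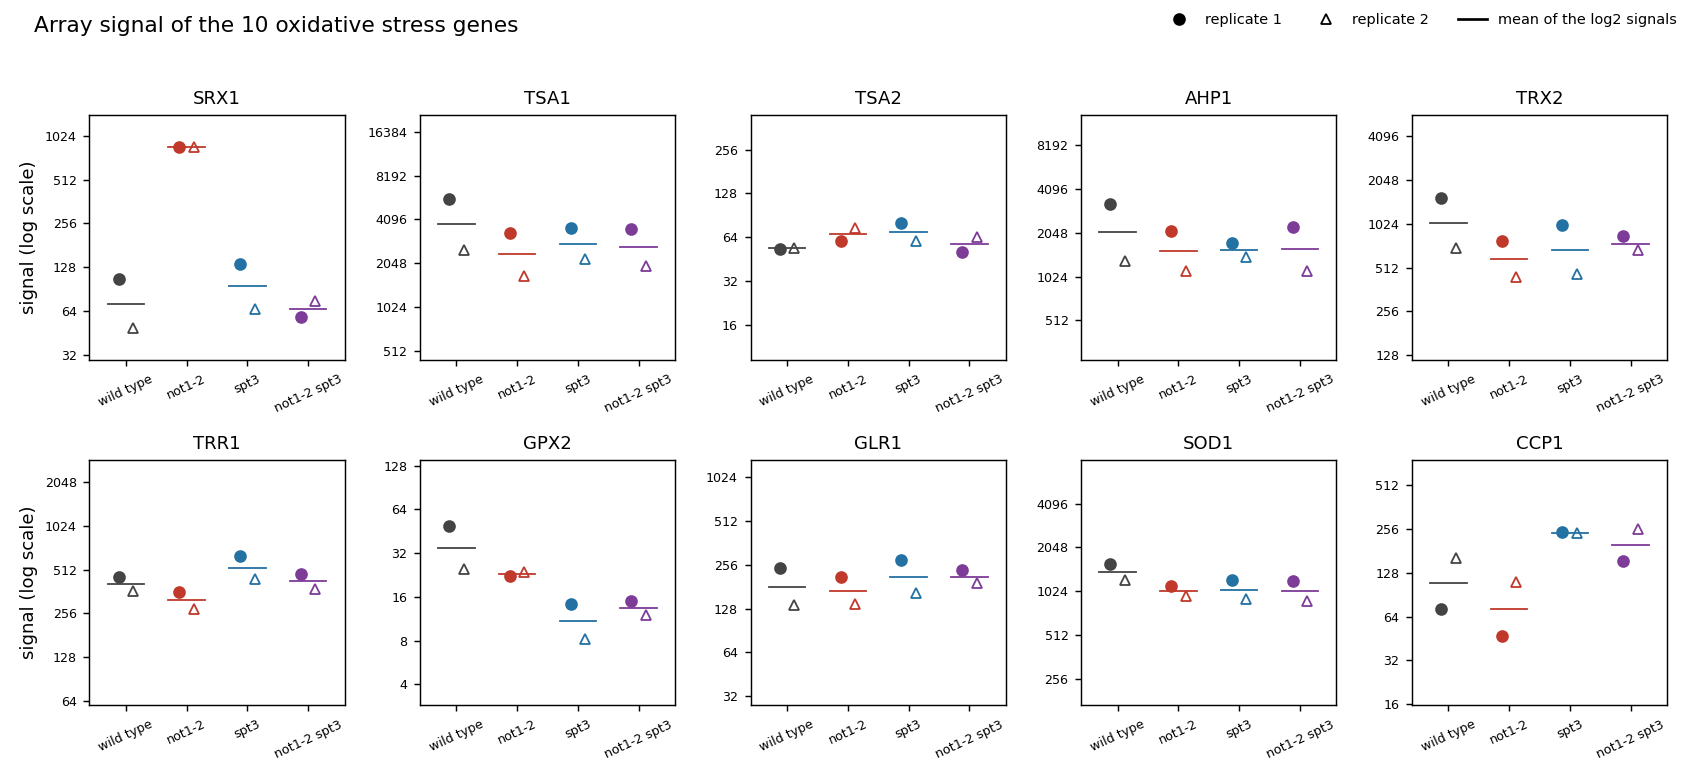
Median-centred array signal (log scale, each panel with its own range) of the 10 genes in the 4 strains, with replicate 1 as filled circles, replicate 2 as open triangles and the mean of the log2 signals as a line. SRX1 sits at 857.9 or more on both not1-2 arrays and at 133.6 or less on the 6 others, GPX2 and CCP1 separate the spt3 strains from not1-2, and the remaining genes overlap between most strains.

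The probe sets most like SRX1 were found by the root mean square difference between log2 levels over the 8 arrays, each gene centred on its own mean, among 5354 others that name 1 gene. The 5 nearest were SNO1 (0.42), SPG4 (0.44), GPG1 (0.49), SNZ1 (0.49) and CPP3 (0.52). SNZ1 and SNO1 are neighbouring genes of vitamin B6 synthesis, SPG4 is a stationary-phase gene and GPG1 encodes a protein linked to a G-protein subunit. SNO1 gave 81.2 and 66.3 in not1-2 and between 8.82 and 17.5 on the other 6 arrays. SNZ1 gave 298.4 and 128.7 in not1-2 and between 18.5 and 36.6 elsewhere. Both thus shared with SRX1 a high level on both not1-2 arrays and low, overlapping levels in the other 3 strains. None of the 9 other redox genes came near: their root mean square difference from SRX1 lay between 1.48 (TSA2, rank 1057 of 5354) and 2.21 (CCP1, rank 5227). The measure mixes the size of changes with their pattern, so these ranks do not grade likeness of pattern alone.

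**Figure D2:**
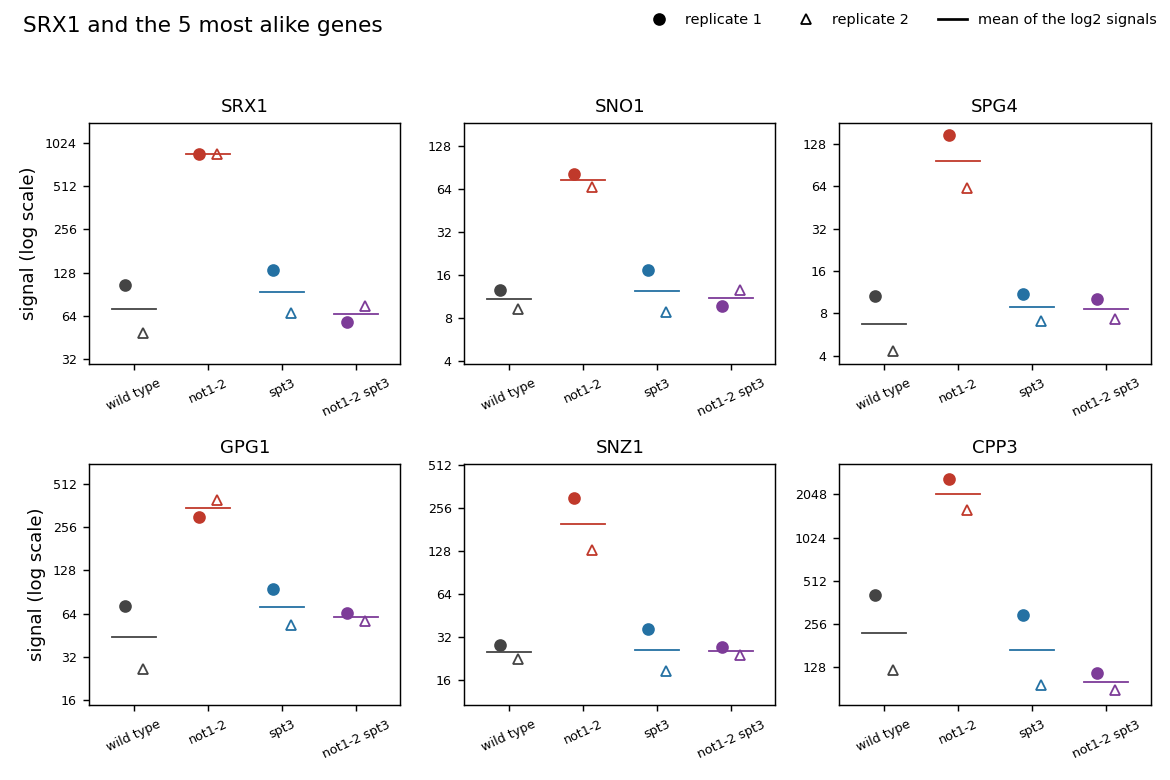
Array signal (log scale) of SRX1 and of the 5 genes whose centred log2 levels over the 8 arrays were nearest to it, with symbols for the replicates and a line for the mean of the log2 signals. All 6 were chosen for this shape: the not1-2 arrays are the highest in every panel, and the other 3 strains overlap one another in each, except that both CPP3 arrays of the double mutant (115 and 88.3) lie below both of wild type (404.4 and 121.8).

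The peroxiredoxin genes, whose products include the enzyme that sulfiredoxin repairs, differed little between strains beside the spread of their arrays. TSA1, the main cytosolic peroxiredoxin, gave 5679.7 and 2520.6 in wild type, 3322.3 and 1670.6 in not1-2, 3600.0 and 2174.2 in spt3 and 3520.0 and 1964.2 in the double mutant. The strains overlapped, because the arrays of each strain differed by more than the strains did. TSA1 in not1-2 lay at -0.68 ± 0.61 from wild type (limma, adjusted p = 0.881), with a 95% interval, not adjusted for the number of genes, from -2.10 to 0.74. The replicate block removed most of that spread (SE 0.16) and the difference was -0.77 and -0.59 in the replicate pairs, yet the test was not passed (blocked adjusted p = 0.0791). In spt3 and the double mutant TSA1 lay at -0.44 and -0.53 from wild type, with blocked adjusted p of 0.223 and 0.194. With quantile normalization and no block these differences were -0.17 and -0.25.

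TSA2, a close paralogue of TSA1 made in small amounts in unstressed cells, stayed between 50.9 and 79.7 on all 8 arrays. It gave 53.4 and 54.2 in wild type, 60.7 and 74.5 in not1-2, 79.7 and 60.5 in spt3 and 50.9 and 64.4 in the double mutant. Both not1-2 arrays lay above both wild-type arrays, but by only 0.32 ± 0.34 (adjusted p = 0.897; interval -0.45 to 1.10). Probe sequences were not used here, so how well the array separates TSA1 from TSA2 is uncertain. AHP1, the thioredoxin-dependent peroxidase that prefers alkyl hydroperoxides, gave 3252.1 and 1304.5 in wild type, 2114.8 and 1113.0 in not1-2, 1749.6 and 1394.6 in spt3 and 2229.8 and 1120.1 in the double mutant. All strains overlapped, and the 3 mutants lay between -0.42 and -0.38 from wild type, at adjusted p of at least 0.900 and blocked adjusted p of at least 0.390.

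In not1-2 the estimates of TRX2 and TRR1 lay under wild type, and neither passed the test. TRX2, a cytosolic thioredoxin and a classical Yap1 target, gave 1550.8 and 693.4 in wild type, 782.0 and 438.9 in not1-2, 997.8 and 461.7 in spt3 and 838.3 and 672.9 in the double mutant. Wild type had the highest array of each replicate number, and the strains overlapped. TRX2 in not1-2 lay at -0.82 ± 0.57 (adjusted p = 0.821, blocked adjusted p = 0.158; interval -2.15 to 0.51), and in spt3 and the double mutant at -0.61 and -0.47. TRR1, the cytosolic thioredoxin reductase gene, gave 455.2 and 365.3 in wild type, 361.4 and 275.3 in not1-2, 632.6 and 444.0 in spt3 and 480.9 and 378.7 in the double mutant. The not1-2 arrays were the lowest, below both arrays of each other strain, at -0.37 ± 0.38 from wild type (adjusted p = 0.891), with the double mutant 0.44 ± 0.38 above them (adjusted p = 0.864). Neither test was passed with the block, at blocked adjusted p of 0.469 and 0.395. The share of all probe sets with not1-2 below every other strain was not counted. Taken singly, 17.3% were lower on both arrays in not1-2 than in wild type, and 20.2% higher in the double mutant than in not1-2.

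Among the genes of the glutathione system, GPX2 separated the spt3 strains from the others. GPX2 encodes a peroxidase of the glutathione peroxidase family that can use thioredoxin. Its wild-type signals were 48.9 and 24.8, and those of not1-2 were 22.4 and 23.7. It gave 14.3 and 8.23 in spt3 and 15 and 12 in the double mutant. All 4 arrays with the spt3 mutation lay below all 4 arrays without it. How many of all probe sets split in this way was not counted. Taken singly, 15.9% of all probe sets were lower on both arrays in spt3 than in wild type. For the double mutant 12.5% were lower than in wild type and 18% lower than in not1-2. The difference from wild type was -1.68 ± 0.47 in spt3, a 3.21-fold lower signal, and -1.37 ± 0.47 in the double mutant, 2.59-fold lower; neither passed the test (adjusted p = 0.739 and 0.959, blocked adjusted p = 0.0709 and 0.126). In the replicate pairs it was -1.77 and -1.59 in spt3 and -1.70 and -1.04 in the double mutant. Over the 27 alternatives it ran from -2.17 to -1.19 in spt3 and from -1.86 to -0.88 in the double mutant, with the ends at the fits without wild-type replicate 2 and without wild-type replicate 1. GPX2 in the double mutant lay at -0.78 ± 0.47 from not1-2 (adjusted p = 0.758, blocked adjusted p = 0.276), and at 0.31 ± 0.47 from spt3.

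GLR1, the glutathione reductase gene, was the most even of the members across strains, with strain log2 means spanning 0.32. It gave 241.4 and 135.1 in wild type, 210.4 and 137.1 in not1-2, 275.5 and 163.8 in spt3 and 236.5 and 190.6 in the double mutant, and all strains overlapped. GLR1 in not1-2 lay at -0.09 ± 0.45 from wild type (adjusted p = 0.987), with an interval of -1.14 to 0.96 that still allows a change of about 2-fold either way.

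**Figure D3:**
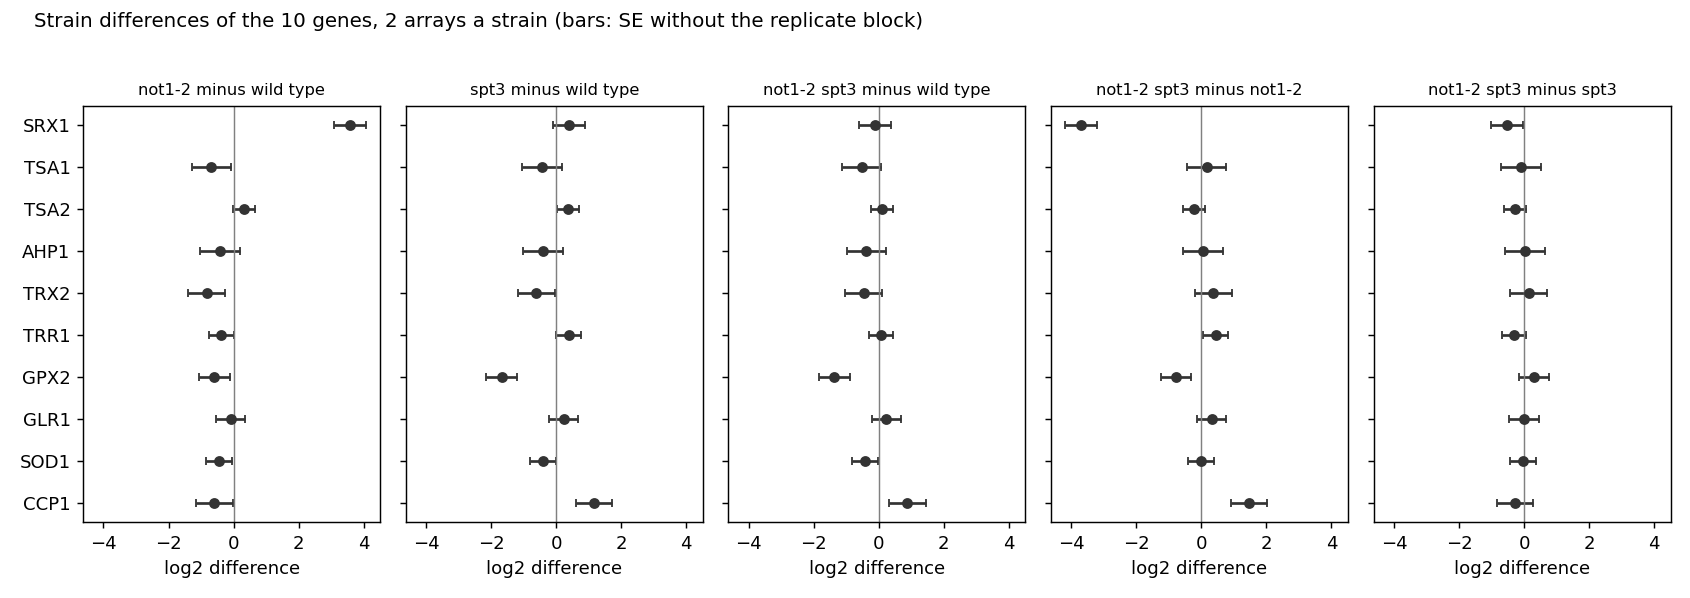
Log2 difference between strains (x axis) for each of the 10 genes (y axis) in 5 comparisons, with the SE of the fit without the replicate block as bars. SRX1 stands at 3.59 in not1-2 against wild type and at -3.71 in the double mutant against not1-2, GPX2 at -1.68 and CCP1 at 1.16 in spt3 against wild type, and the other values lie within 0.82 of zero apart from GPX2 and CCP1 in the double mutant.

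SOD1, the copper-zinc superoxide dismutase of the cytosol, varied little. It gave 1570.8 and 1228.7 in wild type, 1109.7 and 947.5 in not1-2, 1225.5 and 901.2 in spt3 and 1205.8 and 877.5 in the double mutant. Both wild-type arrays lay above all 6 mutant arrays, and the mutants overlapped one another. How many of all probe sets did so was not counted. Taken singly, 17.3% (not1-2), 15.9% (spt3) and 12.5% (double mutant) were lower on both arrays than in wild type. The 3 mutants lay at -0.44, -0.40 and -0.43 from wild type (SE 0.40 each), at adjusted p of 0.883, 0.866 and 0.959 and blocked adjusted p of 0.288, 0.314 and 0.350. With quantile normalization and no block they lay at -0.17, -0.23 and -0.20.

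CCP1, the mitochondrial cytochrome c peroxidase, had its lowest strain mean in not1-2, as did TSA1, AHP1, TRX2, TRR1, GLR1 and SOD1. Of these genes only TRR1 had its not1-2 arrays apart from the next lowest strain. The share of all probe sets with their lowest mean in not1-2 was not counted. CCP1 gave 47.0 and 110.1 in not1-2, 71.7 and 162.7 in wild type, 154.5 and 255.8 in the double mutant and 242.9 and 241.3 in spt3. The not1-2 arrays lay below both arrays of each spt3 strain and overlapped wild type. The double mutant exceeded not1-2 by 1.47 ± 0.56, or 2.77-fold, and by 1.72 and 1.22 in the replicate pairs (adjusted p = 0.606, blocked adjusted p = 0.0733). Over all 27 alternatives it ran from 0.85, without not1-2 replicate 1, to 2.08, without not1-2 replicate 2. This difference passed in 3 fits, each with the block: with quantile normalization (1.51 ± 0.31, adjusted p = 0.0487) and without either spt3 array (adjusted p = 0.0264 and 0.0257). CCP1 in spt3 lay 1.16 ± 0.56 above wild type (adjusted p = 0.864, blocked adjusted p = 0.169), with 1.76 and 0.57 in the replicate pairs, and passed with the block when spt3 replicate 2 was left out, at 1.69 (adjusted p = 0.0298). The double mutant lay 0.88 ± 0.56 above wild type (adjusted p = 0.959).

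Counted together, none of the 9 tested genes passed in any of the 6 comparisons, with limma at an adjusted p of 0.05, without or with the replicate block. In not1-2 against wild type 0 of 9 passed against a background of 0.0426% of all probe sets (1.99% with the block), and 0 of 9 had an unadjusted p under 0.05, as 7.67% of all probe sets did. With the block 2 of 9 did, TSA1 and TRX2, beside 17.9% of all. In spt3 against wild type 0 passed against 0.0568% (0.568% with the block), and in the double mutant against wild type 0 against 0.071% (0.199%). GPX2 alone had an unadjusted p under 0.05 in each, beside 5.51% and 4.3% of all probe sets, and with the block 4 and 3 of 9 did, beside 18.3% and 14.7%. In the double mutant against not1-2 0 passed against 0.0284% (2.36%), with CCP1 alone under an unadjusted p of 0.05 in either fit, beside 7.61% of all probe sets (18.6% with the block). Against spt3, the double mutant gave 0 calls among the members and 0% of all probe sets in both fits, and the 9 differences lay between -0.31 and 0.31. There 0 of 9 had an unadjusted p under 0.05 in either fit, beside 0.142% of all probe sets (0.653% with the block). No member was apart from spt3 in the double mutant, where 5.44% of all probe sets were higher and 6.57% lower on both arrays. For the difference between the not1-2 effects with and without SPT3, 0 of 9 passed against 0% (0.0852% with the block), and the values lay between -0.60 and 0.97. Of these 0 had an unadjusted p under 0.05, beside 3.49% of all probe sets, and with the block 2 did, TSA1 and TRX2, beside 10.1%.

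Some genes were apart on both arrays of a strain without passing the test. In not1-2 against wild type 1 of 9 genes (TSA2) was higher on both arrays, against 14.8% of all probe sets, and 3 (TRR1, GPX2 and SOD1) were lower, against 17.3%. In spt3 against wild type 2 (TSA2 and CCP1) were higher, against 16%, and 2 (GPX2 and SOD1) lower, against 15.9%. In the double mutant 0 were higher than in wild type, against 13.2%, and 2 (GPX2 and SOD1) lower, against 12.5%. Against not1-2, it had 2 higher (TRR1 and CCP1), where the background was 20.2%, and 1 lower (GPX2), where it was 18%. The 9 genes had a median difference from wild type of -0.44 (not1-2), -0.40 (spt3) and -0.38 (double mutant), beside -0.08, -0.02 and -0.05 over all probe sets. These medians share the wild-type arrays, so they are not independent of each other. They were not computed for other scalings, on which single members depended. With quantile normalization and no block AHP1 moved, in the same order, from -0.42, -0.40 and -0.38 to 0, -0.16 and -0.05. GPX2 and CCP1 moved little. In not1-2, 8 of the 9 lay below wild type, where 55.6% of all probe sets did.

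The spread between arrays of the same strain had a pattern of its own. TSA1, AHP1, TRX2, TRR1, GLR1 and SOD1 were higher on the replicate 1 array in all 4 strains, as were 30.4% of all probe sets. The gap was largest for AHP1 in wild type, at 1.32, and for TSA1 it ran from 0.73 to 1.17. CCP1 went the other way, with gaps of -1.18, -1.23 and -0.73 in wild type, not1-2 and the double mutant and 0.01 in spt3. TSA2 gaps stayed between -0.34 and 0.40. SRX1 was higher on replicate 1 by 1.12 in wild type and 1.01 in spt3, and differed by -0.01 in not1-2 and -0.37 in the double mutant. The replicate 1 arrays are also those with the high ACT1 ratios given above; the part of RNA quality in these gaps was not tested.

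**Figure D4:**
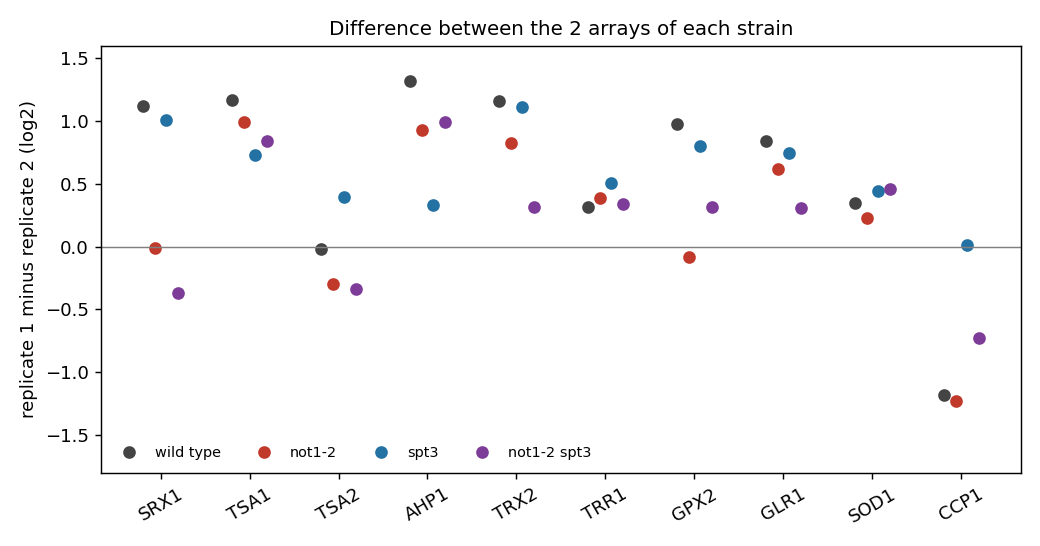
Difference between the replicate 1 and replicate 2 array of each strain (log2, y axis) for the 10 genes (x axis), 1 point a strain. Of the genes, 6 lie above zero in all 4 strains, CCP1 lies below or at zero, and the SRX1 gaps run from -0.37 to 1.12.

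The rest of the redox system was followed in 9 lists that hold 51 genes, of which 47 were tested. GTO3, CTA1 and YBP1 were too dim, and HBN1 had no probe set naming it alone. None of the 47 passed in any of the 6 comparisons in either fit, where the backgrounds were those given above. Their median difference was -0.07 in not1-2 against wild type, with 18 of 47 above zero, beside -0.08 over all probe sets, and 0.13 in the double mutant against not1-2, beside 0.06.

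By role, the list members with the largest difference between not1-2 and wild type were as follows, and each missed the test. Of the other 2 peroxiredoxins, the mitochondrial PRX1 lay at 0.54 ± 0.47 (adjusted p = 0.875). Of the other thioredoxin genes TRX1, cytosolic like TRX2, lay at -1.10 ± 0.36 (adjusted p = 0.509, blocked adjusted p = 0.0598). TRX1 gave 384.4 and 435.2 in not1-2 and between 696.1 and 991.7 on the 6 other arrays, so not1-2 was apart from every other strain. The share of all probe sets with this order was not counted, but 17.3% were lower on both not1-2 arrays than in wild type. Of the 8 glutaredoxins GRX2 was farthest, at -0.43 ± 0.44 (adjusted p = 0.891), and of 2 methionine sulfoxide reductases MXR2, at -0.23 ± 0.93 (adjusted p = 0.983). MXR1, named after its values were seen, gave 52.1 to 54.1 in wild type and not1-2, and 112 to 140.4 in spt3 and the double mutant. In spt3 it lay 1.23 ± 0.31 above wild type (adjusted p = 0.593, blocked adjusted p = 0.0981). The double mutant lay 1.14 ± 0.31 above not1-2 (adjusted p = 0.411, blocked adjusted p = 0.0761). How many of all probe sets had both spt3 strains above the others was not counted. Taken singly, 16% were higher on both arrays in spt3 than in wild type, and 20.2% in the double mutant than in not1-2. Among 8 genes of glutathione synthesis, peroxidases and transferases ECM4, a glutathione transferase, lay at 1.08 ± 0.43 (adjusted p = 0.632). In the superoxide and catalase list CCS1, the copper chaperone of SOD1, lay at -0.91 ± 0.42 (adjusted p = 0.698). CCS1 was also under wild type in spt3, at -0.72 ± 0.42, and in the double mutant, at -0.86 ± 0.42.

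The remaining lists supply NADPH or control these genes. Of 10 NADPH genes IDP2, the cytosolic isocitrate dehydrogenase, was farthest, at 1.12 ± 0.66 (adjusted p = 0.775). Of 5 regulators MSN4, a general stress factor, lay at 1.19 ± 0.96 (adjusted p = 0.859). YAP1 itself gave 11.1 and 26.6 in wild type, 17.3 and 35.1 in not1-2, 28.2 and 27.0 in spt3 and 26.5 and 32.0 in the double mutant. YAP1 in not1-2 thus overlapped wild type, at 0.52 ± 0.52 (adjusted p = 0.891). Of 6 other Yap1-controlled genes YDL218W was farthest, at -1.72 ± 0.89 (adjusted p = 0.748), with 1 not1-2 array at the floor. YDL218W was also under wild type in spt3, at -1.59 ± 0.89, and in the double mutant, at -0.87 ± 0.89. In the double mutant against not1-2 the farthest of the 47 was SOD2, the manganese superoxide dismutase of mitochondria, named after its values were seen. SOD2 gave 53.4 and 65.1 in not1-2, 91.5 and 117.7 in wild type, 188.4 and 203.0 in spt3 and 220.0 and 134.6 in the double mutant. For SOD2 the not1-2 arrays were the lowest of the 8, and the double mutant lay 1.55 ± 0.37 above not1-2, which missed the test (adjusted p = 0.310, blocked adjusted p = 0.0558). The share of all probe sets with the not1-2 arrays lowest was not counted.

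**Figure D5:**
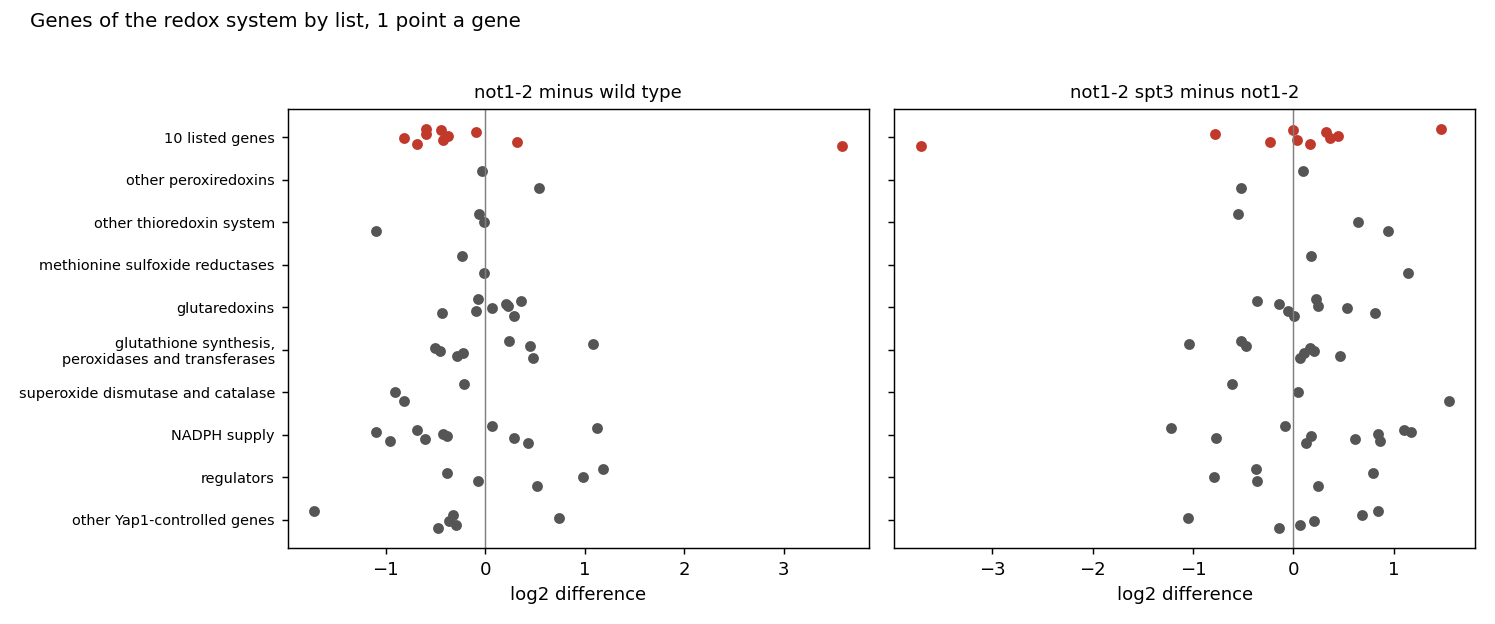
Log2 difference (x axis) of the 10 listed genes (red) and of the 47 tested genes of the related lists (grey), 1 point a gene, in not1-2 against wild type and in the double mutant against not1-2. SRX1 is the point at 3.59 on the left and at -3.71 on the right; the related genes lie between -1.72 and 1.19 on the left and between -1.22 and 1.55 on the right.

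Neither gene beside SRX1 on its chromosome was high in not1-2 alone. CYT2, which encodes a cytochrome c1 heme lyase, gave 40.0 and 78.2 in wild type, 95.5 and 106.9 in not1-2, 118.6 and 123.0 in spt3 and 118.3 and 120.1 in the double mutant. CYT2 was therefore lowest in wild type and similar in the mutants, at 0.85 ± 0.39 in not1-2 (adjusted p = 0.689) and with the double mutant 0.24 ± 0.39 above not1-2. MDH1, the mitochondrial malate dehydrogenase, lay at 0.34 ± 0.34 in not1-2 (adjusted p = 0.891) and at -0.04 ± 0.34 in the double mutant against not1-2. Of the 20 chromosome neighbours of the 10 genes 19 were tested, and 0 passed in any comparison without the block. With the block 2 fell in not1-2 against wild type, where 1.99% of all probe sets passed: GUK1, the guanylate kinase gene beside TSA2 (-1.42, blocked SE 0.20, adjusted p = 0.0150) and ADO1 beside SOD1 (-0.80, blocked SE 0.16, adjusted p = 0.0473). ADO1, the adenosine kinase gene, was also higher in the double mutant than in not1-2 with the block (0.87, blocked SE 0.16, adjusted p = 0.0349). These neighbours were picked by position alone.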

How the data were processed

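Polyadenylated RNA, extracted with acid phenol and biotin-labelled, was hybridised to Affymetrix yeast arrays, per the labels' protocols. The authors deposited linear signal intensities, 1 per probe set and array, with a mean of 100.1 on every array after trimming 2% at each end; the sources used here do not name the software. Of 9335 probe sets, 60 controls were left out. Genes were named from the platform annotation and matched by identifier to symbols of assembly R64 (6504 of 6504 that name 1 gene).

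Each array was scaled so that its median equalled the geometric mean of all array medians (these spanned 0.419 on the log2 scale). The 10th percentile of the scaled signals (1.72) was the lowest value allowed, and the signals were put on the log2 scale. Probe sets were kept if a strain mean exceeded the 25th percentile (6.99), which left 7509, and each gene was represented by its brightest, leaving 7043. The comparisons used limma 3.58.1 in R 4.3.3 (1 mean per strain, 8 arrays, intensity trend, Benjamini-Hochberg over 7043, threshold 0.05). A fit on simulated arrays was checked first.

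Nothing in the labels says that replicates were separate cultures, so the p-values reflect only how these samples vary, and that variation may be technical. The labels number the replicates but name no shared day. Deviations of same-numbered arrays correlated in all 6 strain pairs (r from 0.188 to 0.739); the numbers were therefore treated as pairs, and values with the block are given too. The members, lists and tests were chosen with earlier results of these data known. Named were the 10 members, the related genes that passed or were farthest in each list, the 5 genes nearest to SRX1, strain markers and, added later, CYT2, MDH1, GUK1, ADO1, YAP1, SOD2 and MXR1. Alternatives were the block, scaling, floor, filter, trend, probe sets of a gene, arrays in the fit, the ACT1 ratio and each array left out.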

Additional observations from a re-analysis of the deposited data

How the results depend on the processing

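Limits first: 2 arrays a strain, the replicate 1 arrays with high ACT1 ratios, strains unlike in mating-type and TRP1 expression, and no detection calls. SRX1 in not1-2 lay between 3.03 and 4.15 above wild type, and the double mutant between -4.25 and -3.17 from not1-2, over all 27 alternatives. The SRX1 difference from wild type ran from -0.16 to 0.96 in spt3 and from -0.68 to 0.44 in the double mutant, so its sign was not settled. No other member passed, except CCP1 in the 4 fits named in the report, so the counts of passing members stayed at 0 or, with the block, reached 1 for spt3 against wild type and for the double mutant against not1-2 (also with quantile normalization and the block, added after seeing the data). The block changed no other member call.

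Counts of passing probe sets, 3, 4, 5 and 2 for not1-2, spt3 and the double mutant against wild type and the double mutant against not1-2, and 0 for the interaction, moved with the settings. With the replicate block they were 140, 40, 14, 166 and 6, with the ACT1 ratio in addition 74, 2, 6, 84 and 2, with quantile normalization and the block 106, 13, 13, 166 and 7, and without centring but with the block 132, 35, 12, 157 and 7. With quantile normalization they were 1, 2, 7, 3 and 1, without centring 3, 4, 3, 2 and 1, with a floor at the 20th percentile 7, 6, 7, 5 and 0, without the filter 1, 4, 2, 0 and 1, and with only the strains compared 0, 7, 0 and 0. Leaving out 1 array, without or with the block, gave 0 to 310, 0 to 687, 0 to 160, 0 to 434 and 0 to 115.

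Small differences turned sign. Without centring, with or without the block, GLR1 in not1-2 was at 0.05; with quantile normalization, with or without the block, AHP1 in the double mutant against not1-2 was at -0.05; with the block and ACT1 ratio AHP1 in spt3 was at 0.02. With 1 array left out, differences from wild type ranged as follows. AHP1 ran from -1.08 to 0.23 in not1-2, -1.06 to 0.26 in spt3 and -1.04 to 0.28 in the double mutant. GLR1 ran from -0.51 to 0.33, -0.19 to 0.65 and -0.19 to 0.65, TSA1 from -1.02 to 0.15 in spt3 and -1.11 to 0.06 in the double mutant, and CCP1 from -1.20 to 0.03 in not1-2. In the double mutant TRX2 ran from -1.05 to 0.12, TRR1 from -0.11 to 0.24 and TSA2 from -0.09 to 0.27. Against not1-2, the double mutant ran from -0.34 to 0.65 for TSA1, -0.45 to 0.54 for AHP1 and -0.06 to 0.77 for TRX2. Over all 27 alternatives SOD1 ran from -0.22 to 0.23 in that comparison. Where a strain kept only 1 array, the spread of the other strains stood in for its own. The cause of these shifts was not tested.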
